A study of Mus musculus with 25 samples.

Results

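The genes described here encode the subunits of the mitochondrial respiratory chain and ATP synthase, together with the assembly factors whose symbols share the same prefixes. They were taken by symbol from a table of 49452 genes: prefixes Ndufa, Ndufb, Ndufc, Ndufs, Ndufv, Sdha to Sdhd, Uqcr, Cox4 to Cox8, Atp5, mt-Nd, mt-Co, mt-Cyt and mt-Atp, protein-coding, with a mean of at least 1 FPKM over all 25 libraries. FPKM is a count of fragments scaled to transcript length and library size, a level per length of RNA. The prefixes matched 120 rows, of which 109 were protein-coding, and 105 genes reached the minimum. The 4 coding genes below it were Cox6a2 (0.484 FPKM), Cox7b2 (0 FPKM), Cox8c (0.00262 FPKM) and mt-Co3 (0.923 FPKM, just outside), while Sdhaf3 (1.15 FPKM) was the lowest inside. Cox4i1 was not among the matched rows, so the sums and isoform levels below do not include it. The 105 genes are 12 encoded in mitochondrial DNA and 93 encoded in the nucleus, the latter being 79 subunits or subunit isoforms and 14 assembly or associated factors. All 105 entered the test.

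Colon RNA of 6-week-old C57BL/6 mice was measured, from the distal part, by poly(A)-selected, stranded RNA sequencing of 5 mice of each of 5 genotypes. The controls, Nemofl/fl, have a floxed allele of Ikbkg, the X-linked gene for NEMO, a regulatory component of IκB kinase. In NEMOIEC-KO mice NEMO is missing from intestinal epithelial cells, and every double mutant has that deletion too. The double mutants are NEMOIEC-KO Il12b-/- (p40, shared by IL-12 and IL-23), NEMOIEC-KO Il12a-/- (p35, of IL-12) and NEMOIEC-KO Il23a-/- (p19, of IL-23), and the study asked how losing each cytokine subunit changes the colitis of NEMOIEC-KO mice. The labels used here name neither the Cre driver nor the mutant alleles.

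The labels were checked against the RNA. Ikbkg was 9.08 ± 1.14 FPKM (SD, n = 5 mice, as for all group values below) in Nemofl/fl and 4.08 ± 1.104 FPKM in NEMOIEC-KO, and lay between 2.93 and 4.37 FPKM in the 15 double mutant libraries. Il12b RNA was higher, not lower, in the libraries labelled Il12b-/- (0.994 ± 0.223 FPKM, against 0.171 ± 0.0799 FPKM in NEMOIEC-KO), and Il12a RNA likewise in those labelled Il12a-/- (1.20 ± 0.586 against 0.421 ± 0.313 FPKM). Il23a was 0.214 ± 0.0427 FPKM in the Il23a-/- libraries and 0.311 ± 0.308 FPKM in NEMOIEC-KO. A gene-level FPKM cannot show which exons are deleted, so the double mutants are called Il12b-, Il12a- and Il23a-labelled libraries below. Colonocyte, goblet and muscle markers were present in the controls (Car1 2281, Muc2 984 and Myh11 490 FPKM), so the libraries hold RNA of mucosa and muscle wall. In such bulk tissue, fewer cells of a type and less RNA per cell cannot be told apart.

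The respiratory chain passes electrons from NADH (complex I) and succinate (complex II) through complex III to oxygen at complex IV, and ATP synthase (complex V) uses the resulting proton gradient to make ATP. Complexes I, III, IV and V are built from proteins of both genomes, whereas complex II is encoded in the nucleus alone. Mitochondrial DNA is transcribed as long polycistronic RNAs that are cut into mRNAs, and some neighbouring genes share bases at their ends. The colonic epithelium is an oxidative tissue that burns butyrate from bacterial fermentation.

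Shared bases bear only on how the fragments that cover them are counted. In the GENCODE annotation of GRCm38, mt-Atp8 (chrM:7766-7969, plus strand) and mt-Atp6 (chrM:7927-8607) share 43 bases, and mt-Nd4l (chrM:9877-10173) and mt-Nd4 (chrM:10167-11544) share 7 bases. The bases around both junctions are shown 5′ to 3′ on the plus strand, with capitals marking the bases that lie in both genes.

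mt-Atp8 and mt-Atp6, chrM:7887-8009: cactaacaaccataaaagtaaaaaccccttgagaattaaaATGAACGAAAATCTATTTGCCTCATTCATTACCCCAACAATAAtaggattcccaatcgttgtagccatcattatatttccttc

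mt-Nd4l and mt-Nd4, chrM:10127-10213: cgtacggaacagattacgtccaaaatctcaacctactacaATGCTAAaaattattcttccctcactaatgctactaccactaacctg

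Each capital run opens with the start codon of the downstream gene, and a fragment that covers it belongs to both annotated genes. The deposited levels of such neighbours were far apart. mt-Atp8 had a mean of 6895 FPKM over the 25 libraries and mt-Atp6 4.34 FPKM, mt-Nd4 had 1310.5 FPKM and mt-Nd4l 14.6 FPKM. mt-Co2 (2.51 FPKM) and mt-Nd3 (2.39 FPKM) were low beside mt-Co1 (7668 FPKM), mt-Cytb (4602 FPKM), mt-Nd1 (3496 FPKM), mt-Nd6 (1950.3 FPKM), mt-Nd2 (1129 FPKM) and mt-Nd5 (721 FPKM). How the authors' counting divided shared fragments is not given in the sources used here. The shared bases are few: 43 of 681 in mt-Atp6 and 7 of 297 in mt-Nd4l. mt-Co3, also low, shares 1 of 784 bases with mt-Atp6, and mt-Co2 and mt-Nd3 share no bases with a neighbour. The reason for the low values of these genes was not tested. mt-Nd5 and mt-Nd6, on opposite strands, share 14 of 1824 and 519 bases, and the 7 bases in mt-Nd4 are of 1378. Whether the counting kept the strands apart is not given either. How much of the mt-Nd6 value comes from its own strand was not tested. The levels of mt-Atp8, mt-Atp6, mt-Nd4l, mt-Co2 and mt-Nd3 are treated as uncertain. The summed level of the 12 mitochondrially encoded genes and its ratio to that of nuclear subunits are given also over the 7 others (mt-Nd1, mt-Nd2, mt-Nd4, mt-Nd5, mt-Nd6, mt-Co1 and mt-Cytb), as are the calls in NEMOIEC-KO against Nemofl/fl.

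**Figure D1:**
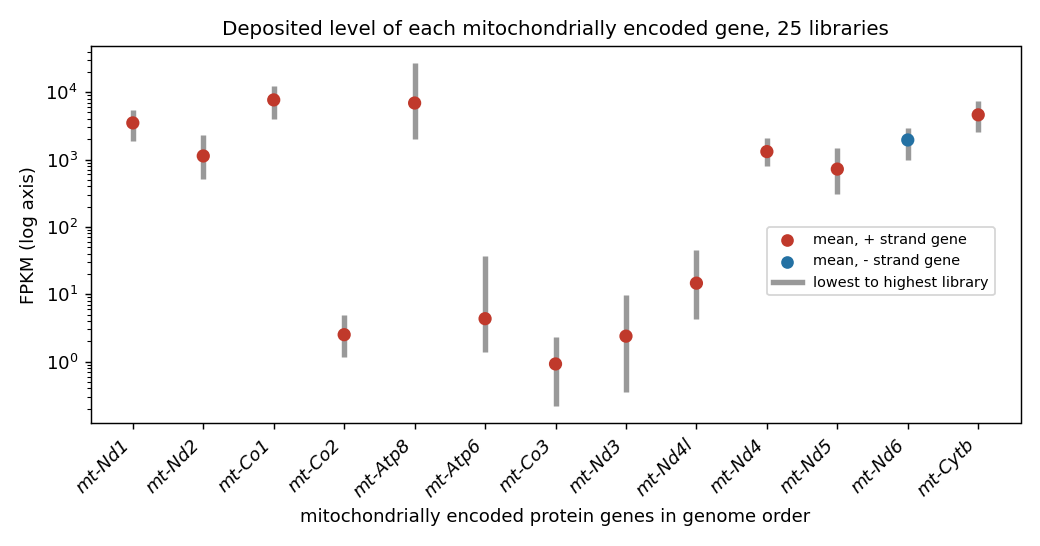
Deposited level of the 13 mitochondrially encoded protein genes in their order on mitochondrial DNA, on a log axis of FPKM; points are means over 25 libraries, bars run from the lowest to the highest library and colours give the strand. mt-Co1 is highest at 7668 FPKM, and mt-Co2, mt-Atp6, mt-Co3 and mt-Nd3 lie below 5 FPKM.

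In NEMOIEC-KO colon, RNA from mitochondrial DNA was lower than in Nemofl/fl, while the summed level of nuclear subunits was slightly higher. The 12 mitochondrially encoded genes together took 6.00 ± 1.77% of the summed FPKM of a library in Nemofl/fl and 3.53 ± 0.824% in NEMOIEC-KO, and the 79 nuclear subunits took 3.79 ± 0.213% and 4.02 ± 0.104%. The ratio of the mitochondrial to the nuclear sum was 2.66, 1.42, 1.24, 1.41 and 1.32 in the 5 Nemofl/fl libraries and 1.22, 0.713, 0.632, 0.937 and 0.914 in the 5 NEMOIEC-KO libraries. Every NEMOIEC-KO library lay below every Nemofl/fl library, though the nearest were close, and Nemofl/fl replicate 1 stood far above the rest. Over the 7 genes without an uncertain level, the mitochondrial share was 4.16 ± 0.525% in Nemofl/fl and 2.73 ± 0.496% in NEMOIEC-KO, and the ratio was 0.966 to 1.47 in Nemofl/fl and 0.520 to 0.863 in NEMOIEC-KO, again without overlap. The double mutants had ratios of 0.983 ± 0.338 (Il12b-labelled), 0.847 ± 0.278 (Il12a-labelled) and 0.792 ± 0.379 (Il23a-labelled), which overlapped those of NEMOIEC-KO. Over the 7 genes their ratios were 0.775 ± 0.235, 0.669 ± 0.178 and 0.583 ± 0.235, beside 0.680 ± 0.137 in NEMOIEC-KO, again with overlap. A sum over chosen genes was given no p-value.

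**Figure D2:**
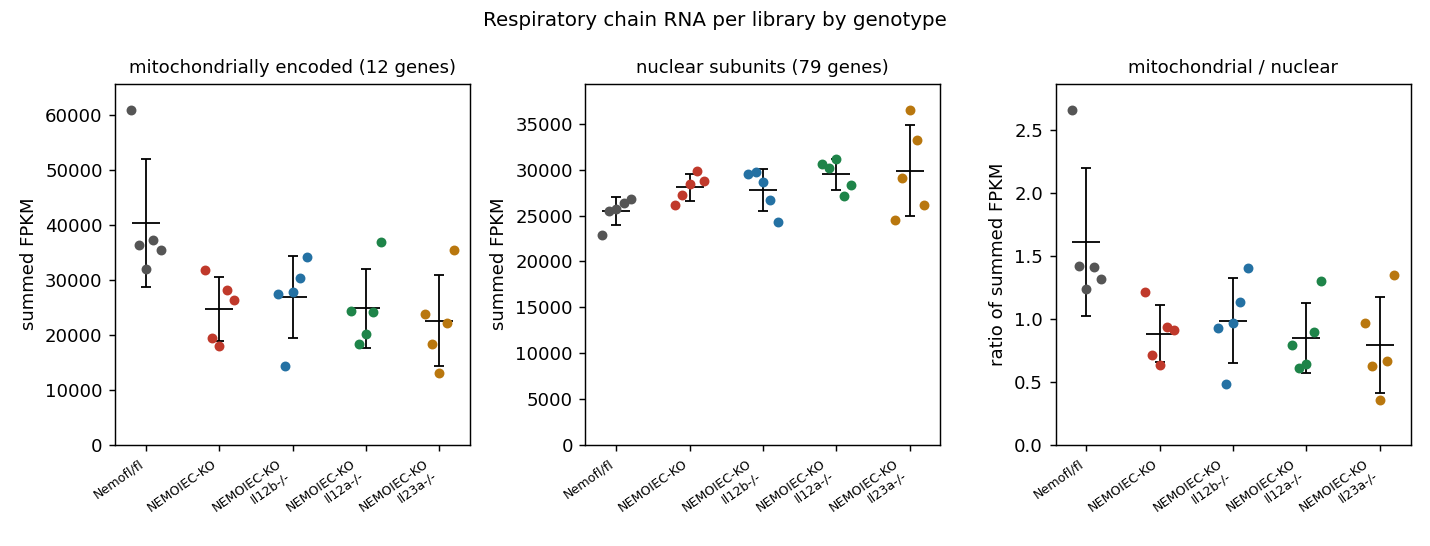
Summed FPKM of the 12 mitochondrially encoded genes, summed FPKM of the 79 nuclear subunits and the ratio of the first to the second, 1 point per library by genotype, with mean and SD as bars. The Nemofl/fl ratios lie between 1.24 and 2.66 and the NEMOIEC-KO ratios between 0.632 and 1.22.

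Of the 12 mitochondrially encoded genes, 5 fell and 0 rose in NEMOIEC-KO against Nemofl/fl, where 32.2% of all 19266 genes tested passed the threshold in either direction and 20.3% fell (limma, adjusted p below 0.05; 9 of the 12 had an unadjusted p below 0.05). Their median log2 fold change was -0.61, beside -0.08 over all genes tested, and all 5 are among the 7 genes without an uncertain level, whose median was also -0.61. The share that fell was above the background, in 12 genes that are cut from shared precursors and so are not independent. The 5 were 4 of the 7 complex I genes and mt-Cytb.

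mt-Nd4, a proton-pumping core subunit of complex I, was 2096, 1713, 1600.1, 1756 and 1664 FPKM in Nemofl/fl and 1206, 945, 894, 1132 and 1209.6 FPKM in NEMOIEC-KO. All 5 control libraries were above all 5 NEMOIEC-KO libraries. Its log2 fold change was -0.72 (SE 0.16, limma adjusted p 0.0025).

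mt-Cytb, the cytochrome b of complex III and its only mitochondrially encoded subunit, was 7266, 5452, 5365, 5919 and 5661 FPKM in Nemofl/fl and 4375, 3639, 3440.4, 4607 and 4366 FPKM in NEMOIEC-KO. These groups did not overlap either, with a log2 fold change of -0.54 (SE 0.18, limma adjusted p 0.024). The other complex I genes that fell were mt-Nd2 (1636 to 982 FPKM, -0.73 on the log2 scale, limma adjusted p 0.028), mt-Nd6 (2648 to 1666 FPKM, -0.69, adjusted p 0.020) and mt-Nd1 (4706 to 3162 FPKM, -0.60, adjusted p 0.0497). mt-Nd6 is annotated on the other strand, and its value is not shown to come from that strand alone. Of 22 alternatives, mt-Nd4 passed in 21, mt-Nd6 in 18, mt-Nd2 in 15, mt-Cytb in 14 and mt-Nd1 in 7. mt-Nd1 missed the threshold on leaving out any of 8 of the 10 libraries. mt-Nd5 had a log2 fold change of -0.61 with groups that did not overlap and missed the threshold at a limma adjusted p of 0.069. For complex IV, mt-Co1, its catalytic subunit, had -0.49 (adjusted p 0.11).

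The ATP synthase gene mt-Atp8 was 26994, 9948, 6960.03, 8940.07 and 8608 FPKM in Nemofl/fl and 9179, 3908, 3183, 6373 and 5422 FPKM in NEMOIEC-KO. One control library stood far above the next, the groups overlapped, and the log2 fold change of -1.04 had an SE of 0.45 (limma adjusted p 0.080). The remaining log2 fold changes were -1.03 for mt-Atp6, -0.60 for mt-Nd4l, -0.62 for mt-Nd3 and 0.08 for mt-Co2, all with limma adjusted p between 0.097 and 0.86.

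The count changed with single libraries and with scores of tissue markers. Leaving out NEMOIEC-KO replicate 2 or 3 left 1 of the 12 genes past the threshold, and leaving out Nemofl/fl replicate 1 left 2. Smooth muscle markers were also lower in NEMOIEC-KO: 11 of 14 fell, with a sum of 4179 to 14525 FPKM in Nemofl/fl, 2215 to 6716 in NEMOIEC-KO, 2641 to 11794 in Il12b-labelled, 3093 to 14836 in Il12a-labelled and 2497 to 7852 in Il23a-labelled libraries. With a smooth muscle score as a covariate, 1 mitochondrially encoded gene passed, mt-Nd4. With an absorptive colonocyte score as a covariate, 0 passed by limma and mt-Nd4 had a log2 fold change of -0.48 (adjusted p 0.074). Of 15 colonocyte markers 6 rose and 6 fell in NEMOIEC-KO, and their sum was 12974 to 14767 FPKM in Nemofl/fl and 9215 to 12393 FPKM in NEMOIEC-KO, without overlap. Immune cell markers were higher in NEMOIEC-KO: 10 of 10 T cell markers rose (sum 7.16 to 15.3 FPKM in Nemofl/fl, 26.7 to 73.7 in NEMOIEC-KO), 7 of 8 of plasma cells (823 to 2536, against 2647 to 10867), 8 of 10 of neutrophils (253 to 426, against 478 to 1164) and 7 of 10 of monocytes and macrophages (163 to 213, against 235 to 566). Across the 25 libraries, which share genotypes, the mean log2 level of the mitochondrially encoded genes correlated with the T cell score at r -0.63, the colonocyte score at r 0.52 and the smooth muscle score at r 0.45. The part of the immune cells in the result was not tested. The sample descriptions hold a library code, and all 5 Nemofl/fl libraries share theirs with NEMOIEC-KO replicates 3 to 5 only. Within that code, 6 of the 12 genes fell and mt-Nd4 again had -0.72.

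No mitochondrially encoded gene passed the threshold in any double mutant against NEMOIEC-KO (0 of 12 in each by limma, with 0 at an unadjusted p below 0.05 in each). In those comparisons, 19.9% (Il12b-labelled), 9.61% (Il12a-labelled) and 0.083% (Il23a-labelled) of all genes passed. mt-Nd4 was 1536, 853, 1419, 1519 and 1557 FPKM in Il12b-labelled libraries, with a log2 fold change of 0.33 against NEMOIEC-KO (95% interval -0.01 to 0.67). The Il12a-labelled libraries had 1157, 1164, 1237, 1341 and 1719.6 FPKM (0.29, -0.04 to 0.63), and the Il23a-labelled libraries 1021, 929.97, 792, 935 and 1368 FPKM (-0.11, -0.44 to 0.23). Il12b-labelled replicate 2 lay below every NEMOIEC-KO library and the other Il12b-labelled libraries above all of them. Without that library, 1 mitochondrially encoded gene passed.

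Against Nemofl/fl, the Il23a-labelled libraries had 7 mitochondrially encoded genes that fell and 0 that rose (29.5% of all genes passed, 17% fell), from mt-Nd2 with a log2 fold change of -0.98 to mt-Cytb with -0.72 and with mt-Nd4 at -0.82. This comparison uses the same control libraries as that of NEMOIEC-KO with Nemofl/fl. No double mutant library has the library code of the Nemofl/fl libraries. In comparisons of double mutants with Nemofl/fl, genotype and code therefore cannot be told apart. RNA of sex-linked genes marked 1 of 5 NEMOIEC-KO libraries as female, and 2 of 5 in each of the Il12b- and Il12a-labelled groups. Sex was thus uneven also in the comparisons with NEMOIEC-KO. In the comparison described here, 4 of 5 Il23a-labelled libraries and 0 of 5 Nemofl/fl libraries were marked as female. With sex as a covariate 1 gene passed, with the smooth muscle score 0, with the colonocyte score 4 and without Il23a-labelled replicate 3 also 4. The median log2 fold change of the 12 genes was -0.81 as reported. It was -0.63 with sex, -0.64 with the smooth muscle score, -0.66 with the colonocyte score and -0.66 without that replicate. The Il12b- and Il12a-labelled libraries had 0 of 12 past the threshold against Nemofl/fl by limma (7 and 8 at an unadjusted p below 0.05), with median log2 fold changes of -0.53 and -0.60, where 0.369% and 1.34% of all genes passed.

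Summed nuclear subunit levels were slightly higher in NEMOIEC-KO than in Nemofl/fl, and were apart between all libraries of the groups in complex IV alone. These are sums of deposited FPKM without rescaling, and the library totals also differed. The totals were 672835 ± 13158 FPKM in Nemofl/fl and 698551 ± 27715 FPKM in NEMOIEC-KO. Over the 25 libraries the mean log2 level of nuclear subunits correlated with the library total at r 0.73. The separation in complex IV is therefore given for the deposited scale only. The complex IV sum was 6775 ± 471 FPKM in Nemofl/fl and 7721 ± 367 FPKM in NEMOIEC-KO. The sums were 6336 ± 355 and 6725 ± 326 FPKM for complex I, 692 ± 35.8 and 710.4 ± 50.7 FPKM for complex II, 3624 ± 233 and 4012 ± 208 FPKM for complex III, and 8051 ± 512 and 8928 ± 661 FPKM for complex V, with overlapping libraries in each. The mitochondrially encoded sums went from 11811 ± 1450.2 to 7568 ± 1411 FPKM (I), 5933 ± 776 to 4086 ± 512 FPKM (III), 10269 ± 1243 to 7428 ± 1756 FPKM (IV) and 12300.1 ± 8287 to 5616 ± 2354 FPKM (V), and libraries of the 2 groups did not overlap in I and III. The mitochondrial sum of complex V is that of mt-Atp8 and mt-Atp6 alone, whose levels are uncertain, and Nemofl/fl replicate 1 had 26994 FPKM of mt-Atp8.

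By gene, 9 of 79 nuclear subunits rose and 2 fell in NEMOIEC-KO against Nemofl/fl, beside 11.9% and 20.3% of all genes, and their median log2 fold change was 0.11. The share that rose was near the background. That direction depended on scaling: 16 rose and 1 fell after median-of-ratios scaling, but 7 rose and 9 fell after quantile normalization, and 6 rose and 11 fell when FPKM were rescaled without mitochondrially encoded genes. The risers were 3 of 36 complex I subunits, 1 of 8 in complex III, 2 of 15 in complex IV and 3 of 16 in complex V. Of the 4 complex II subunits 0 passed by limma, with 1 at an unadjusted p below 0.05.

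Uqcrq (chr11:53427922-53430831, minus strand), a small subunit of complex III, was 329, 442, 423, 458 and 471 FPKM in Nemofl/fl and 498, 632, 778, 657 and 615 FPKM in NEMOIEC-KO. The groups did not overlap, and the log2 fold change was 0.58 (SE 0.18, limma adjusted p 0.019). Among Il23a-labelled libraries it spread from 456 to 979 FPKM.

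Cox5a (chr9:57521274-57532426, plus strand), a core nuclear subunit of complex IV, was 450.03, 461, 487, 436 and 464 FPKM in Nemofl/fl and 567, 556, 604, 638 and 558 FPKM in NEMOIEC-KO. It did not overlap between these groups and had a log2 fold change of 0.35 (SE 0.090, limma adjusted p 0.0065). The double mutants lay between, at 529.8 ± 54.5 FPKM (Il12b-labelled), 558 ± 57.2 FPKM (Il12a-labelled) and 530.2 ± 72.3 FPKM (Il23a-labelled), and 0 of the 3 differed from NEMOIEC-KO by limma.

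In complex I the risers were Ndufs4 (54.9 to 71.9 FPKM, 0.38 on the log2 scale, limma adjusted p 0.0077), an accessory subunit needed to finish assembly of the NADH-binding arm, Ndufb7 (197 to 255 FPKM, 0.37) and Ndufs3 (92.8 to 109.6 FPKM, 0.24). In ATP synthase they were Atp5j2 (351 to 462 FPKM, 0.40), Atp5g3 (844 to 1058 FPKM, 0.33), which encodes subunit c of the membrane rotor, and Atp5mpl (641 to 797 FPKM, 0.32). Cox7c of complex IV went from 509 to 636 FPKM (0.32). All of these had limma adjusted p between 0.0077 and 0.035. Of 22 alternatives, Ndufs4 passed in 20, Atp5g3 in 17, Ndufb7 in 13 and Atp5j2 in 12. Ndufb7 missed the threshold on leaving out any of 6 of the 10 libraries, and Atp5j2 any of 7. With the smooth muscle score as a covariate 0 of the 79 subunits passed by limma, with the colonocyte score 3 rose and 0 fell, and within the shared library code 17 rose and 0 fell. Leaving out NEMOIEC-KO replicate 2, 3 or 5 or Nemofl/fl replicate 1 left 6, 5, 6 and 6 subunits.

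**Figure D3:**
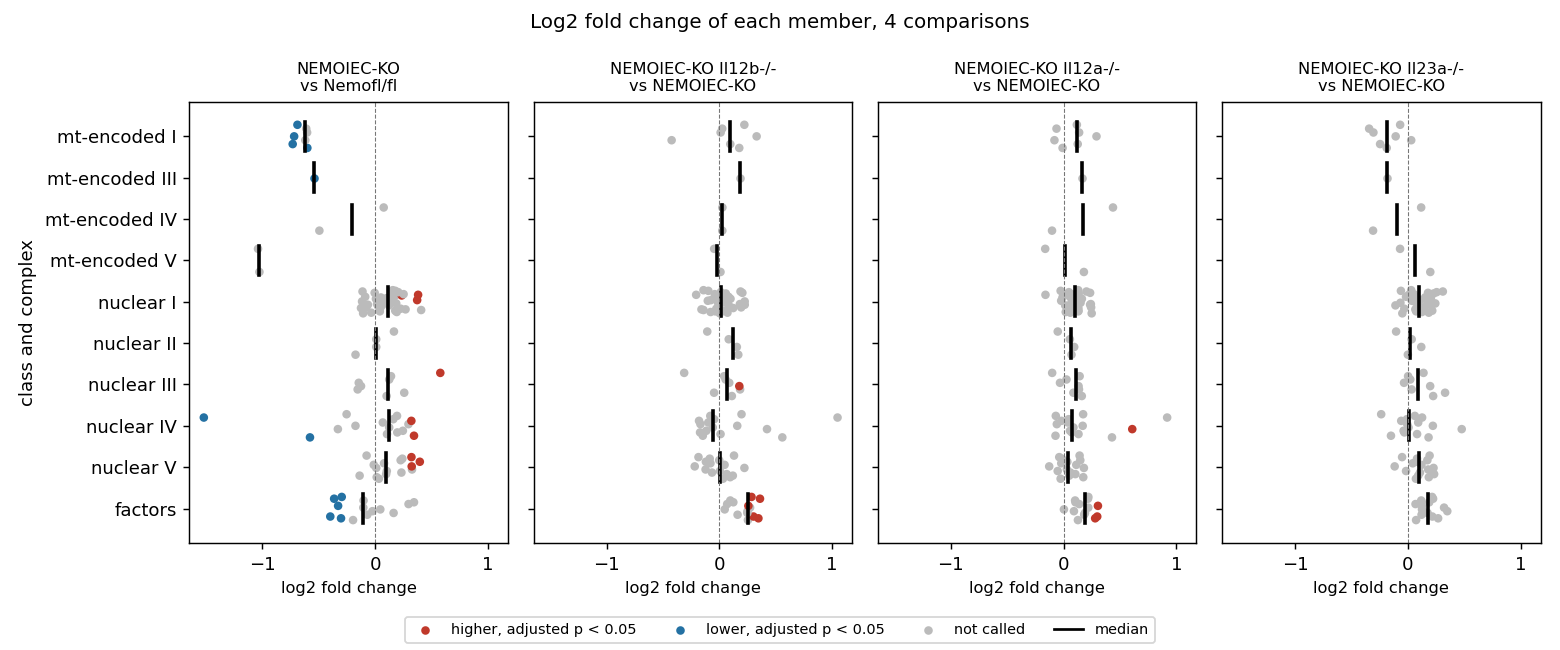
Log2 fold change of each gene, grouped by complex and class, for NEMOIEC-KO against Nemofl/fl and for each double mutant against NEMOIEC-KO; colours give the limma call and black lines the group medians. In the first panel the mitochondrially encoded genes of all complexes have a median of -0.61 and the nuclear subunits one of 0.11.

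In the double mutants, 1 subunit passed in each of 2 comparisons with NEMOIEC-KO. Uqcrc1, a core subunit of complex III, rose from 199 to 224 FPKM in Il12b-labelled libraries (log2 fold change 0.18, limma adjusted p 0.047), where 14% of all genes rose and 5.94% fell. It passed in 7 of 22 alternatives, and missed the threshold on leaving out any of 9 of the 10 libraries (all but NEMOIEC-KO replicate 4), after median-of-ratios scaling (0.04, adjusted p 0.74), and with a replicate block, the sex or colonocyte covariate, no filter or 1 library code. Cox6b2 rose in Il12a-labelled libraries, as given below with the isoforms, where 5.61% rose and 4% fell. In Il23a-labelled libraries 0 of the 93 nuclear genes passed by limma and 17 had an unadjusted p below 0.05.

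Against Nemofl/fl, the Il23a-labelled libraries had 21 nuclear subunits that rose and 1 that fell, with a median log2 fold change of 0.18 beside -0.05 over all genes, and 12.6% of all genes rose. The highest were Uqcrq (0.72), Uqcr11 (505 to 786 FPKM, 0.59) and Atp5g1 (313 to 452 FPKM, 0.51). Together with the 3 factors that passed, 25 nuclear genes were called, against 0 with sex or the smooth muscle score as a covariate, 9 without Il23a-labelled replicate 3, 9 without replicate 4 and 16 without Nemofl/fl replicate 1. After quantile normalization 10 rose and 5 fell, and after rescaling without mitochondrially encoded genes 11 rose and 8 fell. The median log2 fold change of the nuclear genes was 0.17 as reported, 0.14 with the sex covariate and 0.16 with the smooth muscle covariate. It was 0.02 after quantile normalization and 0.02 after the rescaling. In Il12b- and Il12a-labelled libraries 0 of the 105 genes passed against Nemofl/fl by limma, with 20 and 42 at an unadjusted p below 0.05. Between the double mutants 0 of 105 passed in each of 3 comparisons (1, 7 and 5 at an unadjusted p below 0.05), where 0.41% (Il12b- against Il12a-labelled), 5.11% (Il12b- against Il23a-labelled) and 1.16% (Il12a- against Il23a-labelled) of all genes passed.

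Of the 14 assembly and associated factors, 5 fell and 0 rose in NEMOIEC-KO against Nemofl/fl, beside 20.3% and 11.9% of all genes. Against NEMOIEC-KO, 5 rose in Il12b-labelled and 3 in Il12a-labelled libraries, where 14% and 5.61% of all genes rose. These comparisons share the NEMOIEC-KO libraries, so a high or low value there enters each of them. The factors that fell were Ndufaf1 and Ndufaf7 of complex I, Sdhaf3 and Sdhaf4 of complex II, and Cox7a2l, and the same 5 rose in Il12b-labelled libraries. Among those rises that of Sdhaf4 was the least stable, as given below. Median log2 fold changes over the 14 were -0.10 in NEMOIEC-KO against Nemofl/fl and 0.25 in Il12b-labelled libraries against NEMOIEC-KO, beside -0.08 and 0.11 over all genes. Median-of-ratios scaling lowered the all-gene median of the second comparison from 0.11 to 0.00, and under it 1 of the 14 factors rose, Cox7a2l. Quantile normalization and the smooth muscle covariate likewise left 1 factor that rose in that comparison. In NEMOIEC-KO against Nemofl/fl, 2 factors rose and 4 fell after median-of-ratios scaling, and 1 rose and 4 fell after quantile normalization.

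Ndufaf1 (chr2:119655446-119662827, minus strand), a chaperone for an early membrane intermediate of complex I, was 10.5, 10.4, 9.38, 10.7 and 10.8 FPKM in Nemofl/fl and 7.36, 7.54, 7.22, 7.46 and 9.33 FPKM in NEMOIEC-KO. Every NEMOIEC-KO library was below every control, replicate 5 closest, with a log2 fold change of -0.40 (SE 0.087, limma adjusted p 0.0020). It passed in all 22 alternative analyses of this comparison. It was 9.69 ± 0.604 FPKM in Il12b-labelled libraries (0.30 against NEMOIEC-KO, limma adjusted p 0.018), 9.69 ± 1.04 FPKM in Il12a-labelled libraries (0.30, 0.035) and 9.14 ± 1.12 FPKM in Il23a-labelled libraries (0.22, 0.35). The rise passed in 17 of 22 alternatives in Il12b-labelled and in 10 of 22 in Il12a-labelled libraries. In the latter it missed the threshold on leaving out any of 8 of the 10 libraries.

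Cox7a2l (chr17:83501918-83517330, minus strand) encodes SCAF1, which joins complexes III and IV into supercomplexes; C57BL/6 mice are known to carry a short form of it. It was 264, 288, 267, 291 and 286 FPKM in Nemofl/fl and 246, 199.6, 219.6, 240.3 and 229 FPKM in NEMOIEC-KO, without overlap (log2 fold change -0.30, SE 0.066, limma adjusted p 0.0019, also past the threshold in all 22 alternatives). In Il12b-labelled libraries it was 299.6, 279, 272, 301 and 290.15 FPKM, again above every NEMOIEC-KO library (0.35, SE 0.066, adjusted p 0.0010). Il12a-labelled libraries had 276 ± 20.6 FPKM (0.28, adjusted p 0.013) and Il23a-labelled libraries 273 ± 16.2 FPKM (0.27, adjusted p 0.11). Within the library code that holds all Il12b-labelled libraries and NEMOIEC-KO replicates 1 and 2, the log2 fold change was 0.38 (limma adjusted p 0.056).

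Ndufaf7 (chr17:78937136-78948052, plus strand), a methyltransferase that modifies a complex I core subunit, was 9.97, 10.6, 9.98, 10.6 and 9.51 FPKM in Nemofl/fl and 6.99, 8.22, 7.13, 8.96 and 8.73 FPKM in NEMOIEC-KO (-0.33 on the log2 scale, limma adjusted p 0.0042). It rose by 0.26 in Il12b-labelled and 0.31 in Il12a-labelled libraries on the log2 scale (limma adjusted p 0.027 and 0.022). Each of these rises passed in 13 of 22 alternatives. The succinate dehydrogenase factors were weaker: Sdhaf3 was 1.31 ± 0.232 FPKM in Nemofl/fl, 0.901 ± 0.135 FPKM in NEMOIEC-KO and 1.29 ± 0.115 FPKM in Il12b-labelled libraries. Sdhaf4, which helps to join flavinylated SDHA to SDHB, was 21.5 ± 2.30, 17.5 ± 2.49 and 21.3 ± 0.849 FPKM in the same groups. Both overlapped between NEMOIEC-KO and Nemofl/fl, with log2 fold changes of -0.36 and -0.30 (limma adjusted p 0.017 and 0.028). In Il12b-labelled libraries against NEMOIEC-KO they rose by 0.36 and 0.29 on the log2 scale (limma adjusted p 0.026 and 0.046). There Sdhaf3 passed in 14 of 22 alternatives and Sdhaf4 in 6 of 22. The Sdhaf4 rise missed the threshold on leaving out any of 9 of the 10 libraries.

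With the smooth muscle or the colonocyte score as a covariate, 3 of the 14 factors still passed in NEMOIEC-KO against Nemofl/fl, and within the shared library code 2 did. The rises in double mutants also depended on the libraries: 0 nuclear genes passed within 1 code, where NEMOIEC-KO has 2 libraries. For Il12b-labelled against NEMOIEC-KO, the 6 nuclear genes became 2 without Il12b-labelled replicate 1, 3 without its replicate 4 and 3 without NEMOIEC-KO replicate 1 or 5. For Il12a-labelled against NEMOIEC-KO, the 4 became 10 without Il12a-labelled replicate 1, 1 without its replicate 2, 3 or 5, and 2 without its replicate 4 or NEMOIEC-KO replicate 1, 2 or 3.

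**Figure D4:**
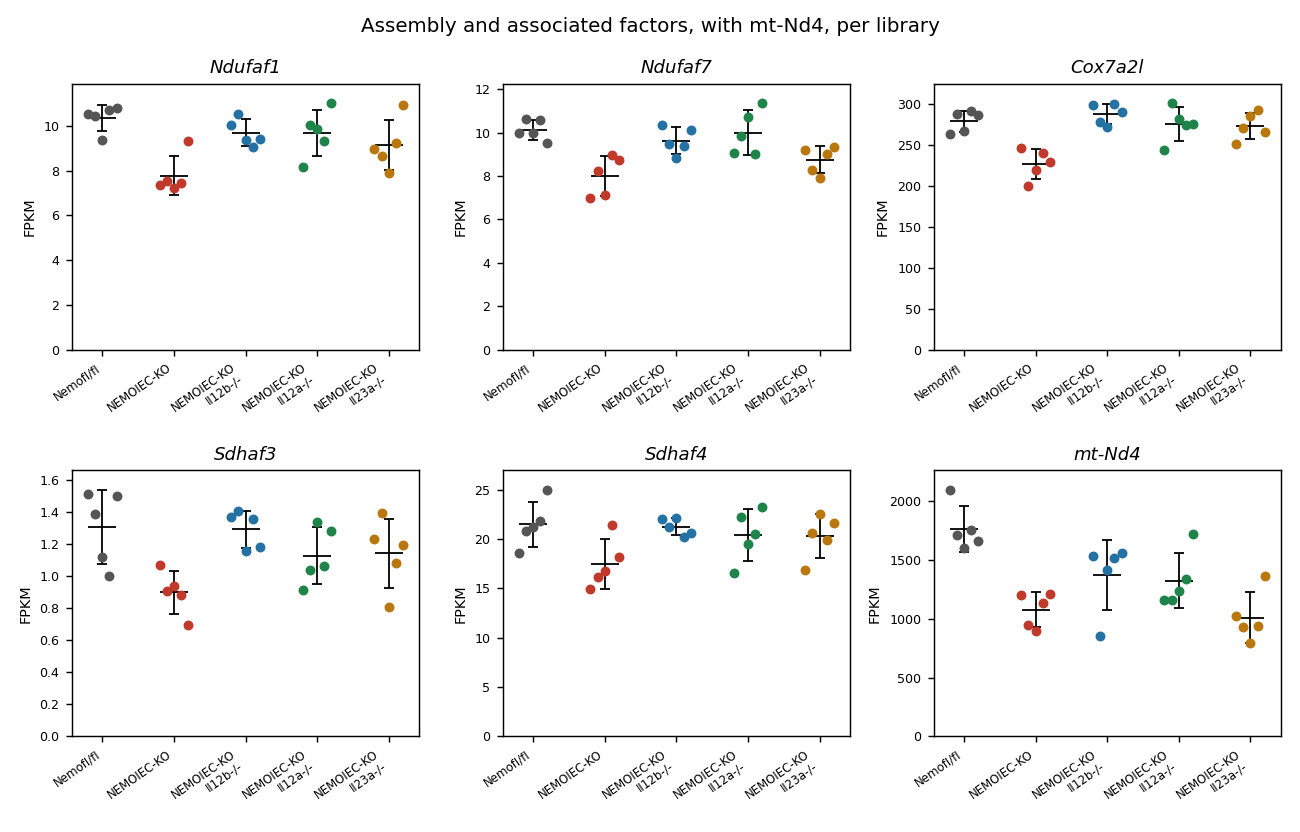
FPKM of Ndufaf1, Ndufaf7, Cox7a2l, Sdhaf3, Sdhaf4 and mt-Nd4, 1 point per library by genotype, with mean and SD as bars. Cox7a2l is at 199.6 to 246 FPKM in NEMOIEC-KO and at 264 to 291 FPKM in Nemofl/fl.

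Promoter sequences are shown for the 3 of the 5 factors that fell in NEMOIEC-KO whose windows hold a match. Windows of RefSeq on GRCm38.p6 from 250 bases before to 50 bases after the gene start were searched on both strands for the binding letters of NRF-1 (GCGCA and GCGC separated by any 1 base) and of ETS factors such as GABP (CCGGAAG), which are known regulators of nuclear respiratory genes. The windows are written 5′ to 3′ along the gene's strand, with capitals marking a match.

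Ndufaf1, chr2:119662785-119663084, minus strand: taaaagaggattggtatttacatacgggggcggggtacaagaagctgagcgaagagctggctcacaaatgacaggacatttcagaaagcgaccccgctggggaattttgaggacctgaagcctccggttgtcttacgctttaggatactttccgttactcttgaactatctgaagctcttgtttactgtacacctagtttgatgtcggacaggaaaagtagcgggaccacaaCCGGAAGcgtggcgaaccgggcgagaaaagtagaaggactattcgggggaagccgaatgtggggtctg

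Sdhaf3, chr6:6955768-6956067, plus strand: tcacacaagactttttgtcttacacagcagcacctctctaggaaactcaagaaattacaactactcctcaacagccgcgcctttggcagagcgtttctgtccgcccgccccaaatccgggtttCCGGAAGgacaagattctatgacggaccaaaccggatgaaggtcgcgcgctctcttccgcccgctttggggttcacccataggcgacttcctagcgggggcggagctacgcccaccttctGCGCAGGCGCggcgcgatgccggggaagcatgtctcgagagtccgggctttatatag

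Sdhaf4, chr1:24005591-24005890, minus strand: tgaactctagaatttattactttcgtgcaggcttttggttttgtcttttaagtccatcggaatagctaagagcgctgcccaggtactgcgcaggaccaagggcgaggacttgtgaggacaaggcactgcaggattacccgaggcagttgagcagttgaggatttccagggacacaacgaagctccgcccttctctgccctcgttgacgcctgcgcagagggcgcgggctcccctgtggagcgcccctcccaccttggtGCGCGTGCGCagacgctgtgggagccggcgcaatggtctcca

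Ndufaf1 holds 1 ETS match, Sdhaf3 holds 1 NRF-1 and 1 ETS match, and Sdhaf4 holds 1 NRF-1 match, while the windows of Cox7a2l and Ndufaf7 held neither. Of the 93 nuclear genes, 79 matched the RefSeq table, with 84 windows. The NRF-1 letters were in 26.2% of those windows and in 4.60% of all 32851 promoter windows, and the ETS letters in 25.0% and 8.86%. The YY1 letters AANATGGCG were in 14.3% and 2.38%, and the TATA box letters TATAAA in 9.52% and 13.6%. A match describes letters in a window and is not evidence of binding.

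Complex IV has isoforms that are enriched in particular tissues. Cox7a2 and Cox8a, the widely expressed forms, had means of 453 and 1412 FPKM over the 25 libraries, against 146 FPKM for Cox7a1 and 3.65 FPKM for Cox8b, the heart and skeletal muscle forms. Cox6b1 had 769 FPKM and Cox6b2, the testis form, 12.9 FPKM. Ndufa4 had 294 FPKM and its hypoxia-responsive relative Ndufa4l2 3.84 FPKM.

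Cox8b (chr7:140898945-140900446, minus strand) was 1.29, 15.7, 5.24, 6.81 and 4.86 FPKM in Nemofl/fl and 1.69, 1.75, 1.31, 1.18 and 1.75 FPKM in NEMOIEC-KO. Replicate 1 of Nemofl/fl was as low as NEMOIEC-KO, so the groups overlapped. The log2 fold change was -1.52 (SE 0.49, limma adjusted p 0.021), and it missed the threshold without Nemofl/fl replicate 2, the highest library. Across the 25 libraries its level correlated with the smooth muscle score (Pearson r 0.72, Spearman rho 0.72) and the striated muscle score (r 0.66, rho 0.74), as a description of libraries that share genotypes. Striated muscle markers summed to 26.7 to 496 FPKM in Nemofl/fl, highest in replicate 2, and 19.1 to 41.0 FPKM in NEMOIEC-KO, and 3 of 9 tested fell. Their part in the result was not tested. Cox4i2, a lung and oxygen-responsive form, was 3.59 FPKM in Nemofl/fl and fell to 2.22 in NEMOIEC-KO (-0.58 on the log2 scale, limma adjusted p 0.044) and correlated with the same smooth muscle score at r 0.64. With that score or the colonocyte score as a covariate neither passed. Cox4i2 passed in 8 of 22 alternatives, and missed the threshold on leaving out any of 8 of the 10 libraries (all but NEMOIEC-KO replicate 4 and Nemofl/fl replicate 1), after median-of-ratios or quantile scaling, with no filter and within 1 library code.

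Cox6b2 was 9.96, 9.20, 14.8, 8.08 and 7.48 FPKM in NEMOIEC-KO and 9.01, 16.3, 19.6, 14.7 and 17.4 FPKM in Il12a-labelled libraries. Except for 1 library in each group the values were apart, and the log2 fold change was 0.61 (SE 0.17, limma adjusted p 0.031). It passed in 10 of 22 alternatives, and missed the threshold on leaving out any of 7 of the 10 libraries (Il12a-labelled replicates 2 to 5 and NEMOIEC-KO replicates 2, 4 and 5), after median-of-ratios scaling, with no filter, with the colonocyte or smooth muscle covariate and within 1 library code. Cox7a1 had group means of 131 to 161 FPKM and no call in NEMOIEC-KO against Nemofl/fl (log2 fold change -0.17, limma adjusted p 0.63). It correlated with the colonocyte score at r 0.79 over the 25 libraries.

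**Figure D5:**
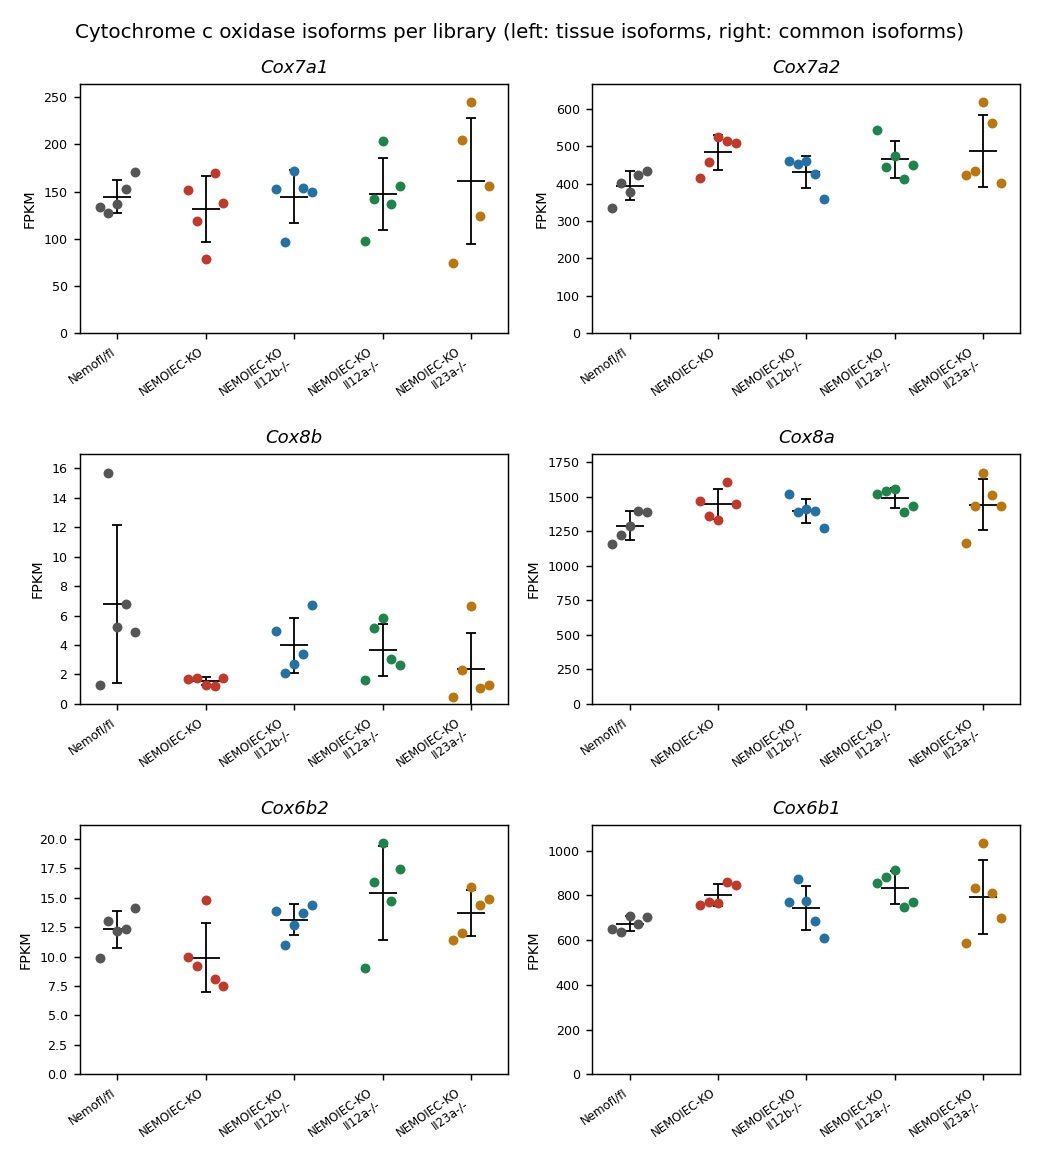
FPKM of the muscle or testis isoforms Cox7a1, Cox8b and Cox6b2 beside their widely expressed partners Cox7a2, Cox8a and Cox6b1, 1 point per library by genotype, with mean and SD as bars. Cox8b lies between 1.18 and 1.75 FPKM in NEMOIEC-KO and between 1.29 and 15.7 FPKM in Nemofl/fl.

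The spread between libraries differed by class. The SD of log2 levels over the 25 libraries had a median of 0.486 for mitochondrially encoded genes, 0.175 for nuclear subunits and 0.189 for factors, beside 0.256 for all genes tested with a mean of at least 1 FPKM. Sdhc, a membrane anchor of complex II, was steadiest among the members (SD 0.0913) and Cox8b the most variable (SD 0.949). Within the complexes the highest nuclear subunit by mean FPKM was Ndufa6 in I (501), Sdhd in II (269), Uqcrh in III (983), Cox8a in IV (1412) and Atp5b in V (1386). The lowest were Ndufa11 (38.4), Sdha (131), Uqcrc2 (134), Cox4i2 (3.04) and Atp5f1 (198).

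Other genes of mitochondrial function were read from 8 lists, whose counts can be set against the shares of all genes: 20.3% fell and 11.9% rose in NEMOIEC-KO against Nemofl/fl, and 14% and 5.61% rose in Il12b- and Il12a-labelled libraries against NEMOIEC-KO, where 0.083% passed in Il23a-labelled libraries. Of 14 tricarboxylic acid cycle genes, 8 fell and 0 rose in NEMOIEC-KO (median log2 fold change -0.25), 8 rose in Il12b-labelled and 4 in Il12a-labelled libraries against NEMOIEC-KO, and 0 passed in Il23a-labelled libraries by limma. Idh2, the mitochondrial NADP-dependent isocitrate dehydrogenase, fell from 76.7 to 50.1 FPKM (log2 fold change -0.61) and rose by 0.60 and 0.61 in Il12b- and Il12a-labelled libraries. Idh3b fell from 129.95 to 100.1 FPKM (-0.37) and rose by 0.40 in Il12b-labelled libraries. Under median-of-ratios scaling, 4 of the 14 fell in NEMOIEC-KO and 3 and 2 rose in Il12b- and Il12a-labelled libraries.

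Of 21 genes for electron carriers and related proteins, 9 fell and 2 rose in NEMOIEC-KO (median -0.25). Coq8a, an atypical kinase of coenzyme Q synthesis, had 22.3 FPKM in Nemofl/fl and fell to 6.10 FPKM (-1.79 on the log2 scale, limma adjusted p 1.1e-08). It rose by 1.50, 1.30 and 0.84 in Il12b-, Il12a- and Il23a-labelled libraries, and was 1 of 16 genes of the whole table that passed in the last. Cycs, cytochrome c itself, moved the other way in NEMOIEC-KO, from 54.6 to 119.9 FPKM (1.12).

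Of 18 genes for replication and transcription of mitochondrial DNA, 8 fell and 0 rose in NEMOIEC-KO (median -0.24), among them Polg2, the accessory subunit of the mitochondrial DNA polymerase (-0.74), and Mterf4 (-0.44). Of 21 genes for mitochondrial RNA processing, 4 fell, including the RNA granule protein Grsf1 (-0.46) and the RNase P subunit Hsd17b10 (66.5 to 53.4 FPKM, -0.31), and 1 rose. Hsd17b10 rose in all 3 double mutants against NEMOIEC-KO (0.38, 0.39 and 0.35), the last missing the threshold after median-of-ratios, quantile or mitochondria-free scaling.

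Of 36 further assembly factors 6 fell and 3 rose in NEMOIEC-KO, a balance that turned to 6 risers and 3 that fell after median-of-ratios scaling. Surf1, a complex IV assembly factor, fell from 65.9 to 46.0 FPKM (log2 fold change -0.51), and Bcs1l, which inserts the Rieske protein into complex III, from 8.16 to 5.38 FPKM (-0.56). Both rose in Il12b-labelled libraries (0.56 and 0.50) and Il12a-labelled libraries (0.43 and 0.37). Of 17 regulators of mitochondrial biogenesis 6 fell and 2 rose (4 and 4 after median-of-ratios scaling), with Esrrg, an orphan receptor of oxidative genes, going from 1.40 to 0.287 FPKM (-1.27) and Sirt3, the mitochondrial deacetylase, from 17.1 to 10.4 FPKM (-0.70). Of 78 genes of the mitochondrial ribosome, 13 rose and 3 fell (median 0.10; 25 and 0 after median-of-ratios scaling, 10 and 7 after rescaling without mitochondrially encoded genes), for example Mrpl41 (0.41). With the smooth muscle or the colonocyte score as a covariate 0 of the 78 passed by limma. Of 20 genes for the outer membrane and mitophagy 2 rose and 3 fell, including the porin Vdac3 (146 to 104 FPKM, -0.49), with a median of 0.00; after median-of-ratios scaling 5 rose and 2 fell.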

How the data were processed

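The 105 genes and all gene lists were chosen with earlier results of these data known. The deposited table holds the authors' FPKM for each gene and library on build GRCm38. The submitters' processing notes name Cufflinks 2.1.1, TopHat2 2.0.10 and DESeq2 1.10.1 without saying what each was used for. The annotation release and the handling of overlapping genes are not given in the sources used here. Per the labels' protocols, RNA was taken with Trizol and RNeasy, and TruSeq stranded libraries were read as paired ends. FPKM sums were 653776 to 744280 per library, and 13529 to 14374 genes reached 1 FPKM. A relative depth read from the smallest steps of the values lay between 0.697 and 1.16. The lowest was that of Il23a-labelled replicate 5, which is also the only library with its library code. Leaving it out, 9 mitochondrially encoded genes fell in Il23a-labelled libraries against Nemofl/fl by limma, where 7 fell with it. Absolute depth is unknown, so no counting interval is given.

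Values were tested as log2(FPKM + 0.5) in limma 3.58.1 (R 4.3.3) for the 19266 genes that reached 0.2 FPKM in 5 or more libraries, with 1 mean per genotype over all 25 libraries and a trend in the prior variance. Tests were two-sided, with Benjamini-Hochberg adjustment over all genes tested and a threshold of adjusted p below 0.05. Fold changes are on this log2 scale and understate those of weakly expressed genes. Symbols and positions came from GENCODE vM21. Replicates are separate mice, per the design text; same-numbered libraries of different genotypes did not deviate together (median r 0.0071 in 50 pairs, against 0.0086 in 200 other pairs), so no pairing was used. No library repeated another (highest r 0.984). On simulated data for NEMOIEC-KO against Nemofl/fl over 19266 genes, the fit recovered 30% of 200 genes changed by 0.5 and 75.5% of 200 changed by 1 on the log2 scale, with 3 and 15 false calls (4.76% and 9.04% of calls). Named genes are every mitochondrially encoded gene, in each of the 4 main comparisons up to 6 nuclear genes with the largest change in each direction past the threshold, the tissue isoforms, the highest and lowest subunit per complex, and up to 2 genes per list with the smallest p. Cox7c, Atp5mpl, Ndufs3, Uqcr11, Atp5g1 and Sdhc fall outside that rule and were named after their values were seen. Alternatives were pseudocounts of 0.1 and 1, other filters, median-of-ratios, quantile and mitochondria-free scaling, a replicate block, a smooth muscle covariate, 1 library code and leaving out each library. Colonocyte and sex covariates, counts by class and the 7 mitochondrially encoded genes without an uncertain level were added after seeing the data.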

Additional observations from a re-analysis of the deposited data

Results flagged for a closer look

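In 31 per-library values over 5 genotypes (155 groups of 5), 21 groups held a library far from the other 4 by Dixon's criterion, which chance exceeds in about 1 in 20 groups; genes transcribed from 1 mitochondrial genome are not independent, so a library counts several times. Nemofl/fl replicate 1 was high for the mitochondrially encoded sum (60760.2 FPKM, others 31875 to 37189), its ratio to the nuclear sum (2.66), mt-Nd2 (2308 FPKM), mt-Nd5 (1476 FPKM), mt-Nd4l (45.9 FPKM) and mt-Atp8 (26994 FPKM), and low for Atp5g3 (735 FPKM, others 850.2 to 889).

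The library labelled NEMOIEC-KO Il12b-/- replicate 2 was low for mt-Nd1 (2105 FPKM), mt-Nd4 (853 FPKM), mt-Nd6 (1091 FPKM), mt-Co1 (3985 FPKM, others 8072 to 9477), mt-Cytb (3089 FPKM) and mt-Atp6 (1.52 FPKM). The library labelled NEMOIEC-KO Il12a-/- replicate 5 was high for mt-Atp8 (10026 FPKM) and mt-Nd3 (5.46 FPKM), and replicate 1 of that group for Ndufs4 (77.3 FPKM). Nemofl/fl replicate 5 was high for mt-Atp6 (37.3 FPKM, others 2.77 to 4.62). NEMOIEC-KO replicate 1 was low for mt-Co2 (1.40 FPKM) and Ndufb7 (212 FPKM). For Ndufaf1, NEMOIEC-KO replicate 5 was high (9.33 FPKM, others 7.22 to 7.54) and Nemofl/fl replicate 3 low (9.38 FPKM, others 10.4 to 10.8), which are the nearest libraries of those groups.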

How the results depend on the processing

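In NEMOIEC-KO against Nemofl/fl, the 16 nuclear genes called became 6 with the colonocyte covariate and 3 with the smooth muscle covariate, and the 5 mitochondrially encoded genes became 0 and 1. The latter 5 became 2 with median-of-ratios scaling, 2 with no filter on low values (31239 genes tested), 3 with quantile normalization and 8 with a replicate block. The 6 nuclear genes called in Il12b-labelled libraries against NEMOIEC-KO became 13 when FPKM were rescaled without mitochondrially encoded genes, 3 with median-of-ratios scaling, 3 with the colonocyte and 3 with the smooth muscle covariate, and 0 within 1 library code, where NEMOIEC-KO keeps 2 libraries. The 4 in Il12a-labelled libraries became 7 when rescaled, 8 with quantile normalization, 1 with the colonocyte covariate, and 0 with median-of-ratios scaling, the smooth muscle covariate or 1 library code. The 0 in Il23a-labelled libraries became 1 with the smooth muscle covariate. Leaving out 1 library gave 9 to 17 nuclear and 1 to 6 mitochondrially encoded genes in NEMOIEC-KO against Nemofl/fl, 2 to 8 nuclear and 0 to 1 mitochondrially encoded in Il12b-labelled, 1 to 10 nuclear and 0 to 0 mitochondrially encoded in Il12a-labelled, and 0 to 0 of either in Il23a-labelled libraries against NEMOIEC-KO. For NEMOIEC-KO against Nemofl/fl, the nuclear count was 10 without NEMOIEC-KO replicate 2, 9 without replicate 3 and 10 without replicate 5. The share of called genes that were higher over the whole table was 36.9% as deposited, 51.4% with median-of-ratios scaling and 24.1% when rescaled. mt-Co2 (log2 fold change 0.08) turned to -0.011 when rescaled, and ranged from -0.072 (without Nemofl/fl replicate 1) to 0.199 (without NEMOIEC-KO replicate 1) when 1 library was left out. The causes were not tested. The replicate block changed no other count by over 1.5 times. Unknown depth limits what can be said of the genes below 5 FPKM, among them mt-Co2, mt-Nd3, mt-Atp6, Cox8b, Cox4i2, Ndufa4l2 and Sdhaf3.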
